A study of Mus musculus with 6 samples.

Results

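The genes described here are 7 Cyp3a genes, 2 Cyp1a genes and Por. They encode CYP3A and CYP1A drug-metabolizing cytochromes P450 of the mouse and the reductase that serves them. They were chosen by symbol from the count files, which list 23284 genes, and all 10 were found. Cyp3a57 and Cyp3a41b are also listed but are not among the 10. The libraries came from livers of C57BL/6 mice that were 8 weeks old and had been fasted overnight, and the study's methods describe its mice as male. The Vehicle group of 3 mice received vehicle, and the FGF19 group of 3 mice received 1 mg/kg of FGF19, the human counterpart of the mouse gut hormone FGF15, for 6 h while the fast continued. The labels name no transgene or deletion. The comparison of FGF19 with Vehicle asks how liver mRNA differs 6 h after the hormone in fasted males.

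Cytochromes P450 are haem enzymes of the endoplasmic reticulum that insert oxygen into lipophilic compounds. CYP3A enzymes oxidize a wide range of drugs, steroids and bile acids, and their genes respond to the nuclear receptors PXR (Nr1i2) and CAR (Nr1i3), whereas CYP1A enzymes oxidize planar aromatic compounds and their genes respond to the aryl hydrocarbon receptor (Ahr) and its partner ARNT. Microsomal P450s receive their electrons from NADPH through the reductase encoded by Por, so that this gene bears on all of them.

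The 300-base promoter windows of RefSeq, from 250 bases before to 50 bases after the annotated start of transcription in build GRCm38.p6, were found for 10 of 10 genes. Windows of 5 genes are shown up to the start, because they pair an abundant gene with a scarce relative (Cyp3a11 with Cyp3a44, and Cyp1a2 with Cyp1a1) or belong to the gene with the smallest p-value (Por). They lie at chr5:145879855-145880104 on the minus strand (Cyp3a11), chr5:145805875-145806124 on the minus strand (Cyp3a44), chr9:57683656-57683905 on the minus strand (Cyp1a2), chr9:57697363-57697612 on the plus strand (Cyp1a1) and chr5:135688895-135689144 on the plus strand (Por). Each is written 5′ to 3′ on the strand of its gene, and capitals mark the motifs searched for.
Cyp3a11: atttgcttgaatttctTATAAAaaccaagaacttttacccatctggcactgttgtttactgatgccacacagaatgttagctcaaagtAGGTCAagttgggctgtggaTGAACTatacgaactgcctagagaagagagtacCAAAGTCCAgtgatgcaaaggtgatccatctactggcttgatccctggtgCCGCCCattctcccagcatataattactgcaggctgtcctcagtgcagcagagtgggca
Cyp3a44: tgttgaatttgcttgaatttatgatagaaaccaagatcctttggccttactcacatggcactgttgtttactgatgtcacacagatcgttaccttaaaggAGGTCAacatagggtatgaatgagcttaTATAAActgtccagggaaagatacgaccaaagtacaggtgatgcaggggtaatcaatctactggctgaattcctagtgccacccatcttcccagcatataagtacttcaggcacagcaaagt
Cyp1a2: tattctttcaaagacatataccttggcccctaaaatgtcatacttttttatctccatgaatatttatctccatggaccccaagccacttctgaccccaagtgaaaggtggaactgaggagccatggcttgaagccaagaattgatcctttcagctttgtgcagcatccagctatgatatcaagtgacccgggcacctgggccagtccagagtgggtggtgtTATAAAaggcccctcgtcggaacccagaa
Cyp1a1: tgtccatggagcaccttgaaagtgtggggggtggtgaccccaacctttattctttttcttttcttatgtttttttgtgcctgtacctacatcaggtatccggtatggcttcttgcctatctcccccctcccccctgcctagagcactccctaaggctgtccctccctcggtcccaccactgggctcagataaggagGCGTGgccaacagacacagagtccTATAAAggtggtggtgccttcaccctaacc
Por: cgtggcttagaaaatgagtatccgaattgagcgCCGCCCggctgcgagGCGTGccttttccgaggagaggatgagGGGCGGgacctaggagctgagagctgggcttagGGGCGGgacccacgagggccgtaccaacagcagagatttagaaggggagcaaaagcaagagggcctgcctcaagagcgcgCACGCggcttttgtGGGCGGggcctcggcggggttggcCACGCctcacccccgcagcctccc

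The motifs were searched as exact letters on both strands over the 300 bases, and no 2 matches overlapped. They were the core read by AHR and ARNT (GCGTG, in 32.4% of the 32851 RefSeq windows), a nuclear receptor half-site (AGGTCA, 16.3%), the half-site TGAACT of everted PXR elements (14.0%), a core read by the liver factor HNF4 (CAAAGTCCA, 0.475%), TATAAA (13.6%) and the GC box GGGCGG (35.7%). The Cyp3a11 window held AGGTCA starting 162 bases, TGAACT 142 bases and CAAAGTCCA 109 bases before the start. The windows of Cyp3a16 and Cyp3a41a also held CAAAGTCCA, and that of Cyp3a44 did not, although its window was identical to that of Cyp3a16 at 95.9% and to that of Cyp3a11 at 79.2% of the aligned bases. The Cyp1a1 window held GCGTG 54 bases and TATAAA 30 bases before the start, and the Cyp1a2 window held TATAAA 29 bases before it and no GCGTG. The Por window held 3 GCGTG and 4 GGGCGG matches and no TATAAA. The windows of Cyp3a25 and Cyp3a59 were identical at 96.3% of the aligned bases and each held AGGTCA in both orientations. A match describes these letters only and is not evidence of a bound site.

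**Figure D1:**
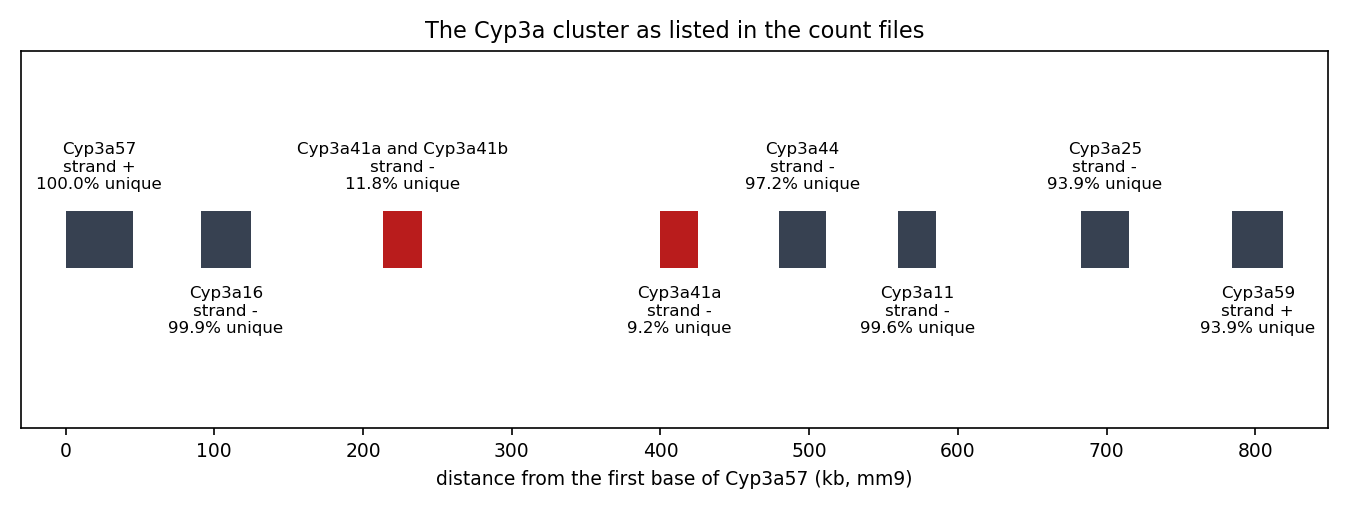
Map of the Cyp3a cluster of chromosome 5 as the count files list it in build mm9, with distance from the first base of Cyp3a57 on the x axis in kb and each bar the span of a gene. The text under or over each bar gives its strand and the percentage of its 100-base exon windows that occur nowhere else in the reference or the listed gene models; the spans drawn in red, which the row for Cyp3a41a combines, are at 11.8% and 9.2%, and all others are at 93.9% or more.

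How well reads tell these genes apart depends on their sequence, because reads that aligned to several places were left out of the counts. Spliced exons of Cyp3a11 (chr5:146666183-146691430 in mm9, the build of the counts, minus strand) were identical to those of Cyp3a44 (chr5:146585559-146617450, minus strand) at 93.5%, to those of Cyp3a16 (chr5:146197178-146230592, minus strand) at 91.5% and to those of Cyp3a13 (chr5:138334161-138362847, minus strand) at 73.0% of the aligned bases. Cyp3a25 (chr5:146788770-146821194, minus strand) and Cyp3a59 (chr5:146890834-146924859, plus strand) were 97.0% identical to each other. Of the 100-base windows of the exons of Cyp3a11, 99.6% occurred nowhere else in the mm9 reference or in the spliced exons of the listed genes, and the same share was 93.9% for Cyp3a25, 93.9% for Cyp3a59, 97.9% for Cyp1a2, 98.6% for Cyp1a1 and 100.0% for Por and Cyp3a13. The map of the Cyp3a cluster shows the exception. The row for Cyp3a41a joins a locus at chr5:146319533-146345599 with a second at chr5:146505624-146531712, and the exons of the first are identical in position to the exons of Cyp3a41b, so that 2064 of the 4124 exon bases of the row are shared. Reads there could not be assigned under the authors' counting, and a low count for Cyp3a41a or Cyp3a41b therefore says little about either gene. None of the other 9 genes shared exon bases with another listed gene.

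The members were sequenced deeply enough to be measured except for the scarcest. Total counts were between 18994654 and 22920056 per library, and the 10 members took between 0.746% and 0.873% of them. Counts were scaled with edgeR's TMM factors and are given as CPM, a unit of counts relative to library size, and levels of different genes are compared as RPKM, which is CPM per kilobase of exon. Where a count was 0, as many as 3 counts could have been missed, which is 0.131 to 0.158 CPM depending on the library, and this limit covers counting error only. Hepatocyte markers were abundant in both groups, with summed levels of 112659 to 115963 CPM under Vehicle and 108945 to 117980 CPM under FGF19. The Y-linked gene Eif2s3y was between 52.4 and 60.6 CPM in all 6 libraries and Xist between 0.0453 and 0.348 CPM; these genes were chosen after their values had been seen.

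**Figure D2:**
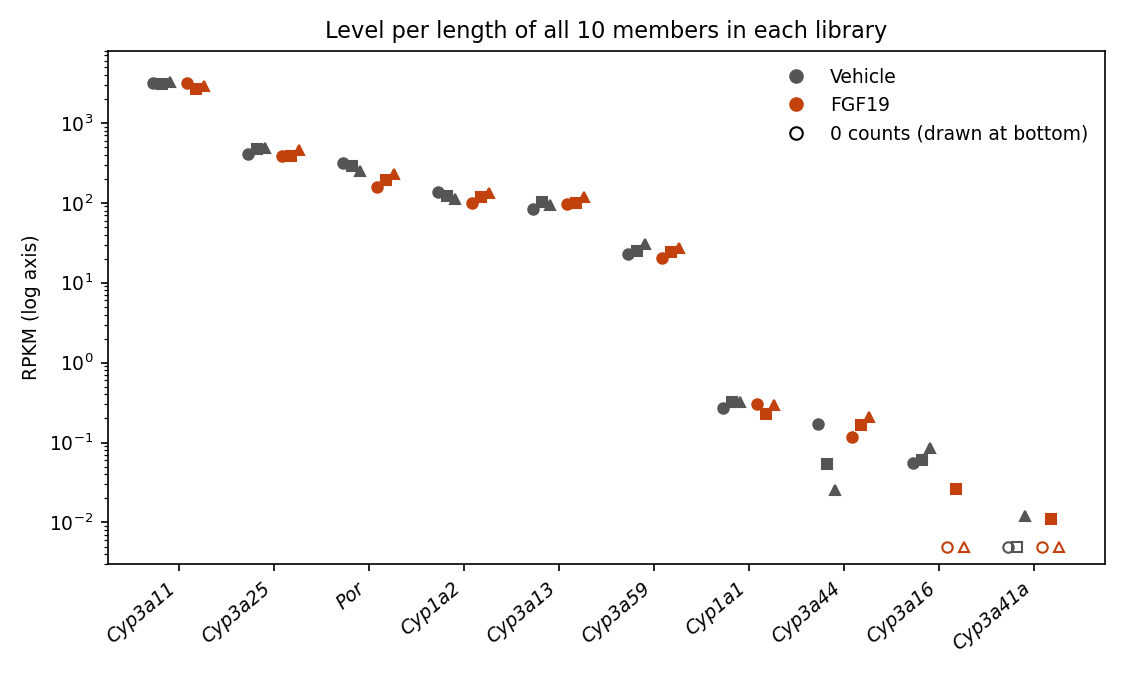
Level of each of the 10 genes in each library as RPKM on a log axis, with Vehicle libraries in grey, FGF19 libraries in orange and a different marker for each replicate; open markers stand for counts of 0 and are drawn at the bottom of the axis. Means run from 3021 RPKM for Cyp3a11 to 0.00386 RPKM for Cyp3a41a.

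Cyp3a11, the main CYP3A gene of adult mouse liver and the usual counterpart of human CYP3A4, was by far the most abundant member, at a mean of 3021 RPKM over the 6 libraries (range 2650.4 to 3207 RPKM). It ranked 2 among the 102 P450 genes and 23 among all genes. Cyp3a25 followed at 434 RPKM, Por at 239.5 RPKM and Cyp1a2 at 120.3 RPKM. Cyp3a13, a family member outside the main cluster, was at 99.3 RPKM, and its range of 83.0 to 118 RPKM overlapped the range of 98.3 to 137 RPKM of Cyp1a2, so the order of these neighbours was not resolved. Cyp3a59 was at 25.2 RPKM. Below it lay a wide gap to Cyp1a1, which was at 0.290 RPKM and is known as a gene of low expression in livers not exposed to AHR ligands. The least abundant were Cyp3a44 at 0.123 RPKM, Cyp3a16 at 0.0382 RPKM and Cyp3a41a at 0.00386 RPKM, whose ranges overlapped from each gene to the next. Within each library, Cyp3a11 took 83.8 ± 1.20% (SD, n = 3) of the Cyp3a counts under Vehicle and 83.4 ± 2.01% (SD, n = 3) under FGF19, and Cyp3a25 took most of the rest at 11.9 ± 0.834% and 11.6 ± 1.34% (SD, n = 3 each).

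**Figure D3:**
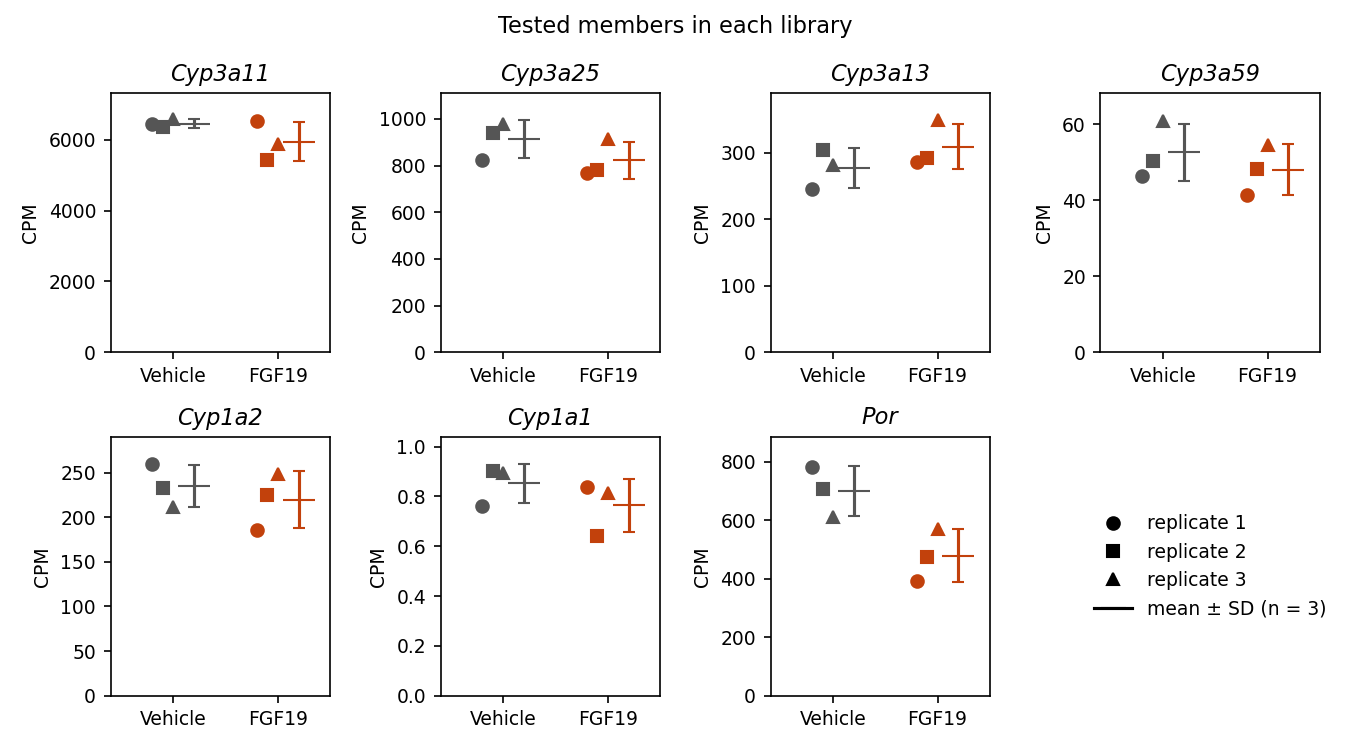
CPM of the 7 tested genes in each library, with a panel per gene, y axes that start at 0, Vehicle in grey and FGF19 in orange, a different marker for each replicate, and the mean ± SD of 3 libraries beside them. The groups overlap in the panels of the 6 P450 genes, whereas in the Por panel the highest FGF19 library, at 570.02 CPM, lies below the lowest Vehicle library, at 611 CPM.

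No CYP3A or CYP1A gene passed the test between the groups, and Por, the reductase, was lower in every FGF19 library and lay at the edge of the threshold. Counts were compared by the quasi-likelihood test of edgeR, and p-values were adjusted by Benjamini-Hochberg over 12559 genes. Here 0 of the 7 members that passed the filter on low counts were lower and 0 were higher at an adjusted p under 0.05, where 2.84% of all genes tested were lower and 4.56% were higher (7.41% in either direction). At the study's threshold of an unadjusted p under 0.01, 1 member, Por, was lower and 0 were higher, beside 4.98% and 6.2% of all genes tested (11.2% in either direction). At an unadjusted p under 0.05 the count was again 1 of 7, beside 22.9% of all genes tested in either direction, and DESeq2 also called Por and no other member. The groups did not overlap for 1 of the 7 members, again Por, beside 13.8% of all genes tested with FGF19 below and 14.5% with FGF19 above (28.3% in either direction). The log2 fold changes of 6 of the 7 were negative, with a median of -0.13 beside -0.000763 over all genes tested. In bulk liver RNA, a change in the number of hepatocytes and a change in RNA per hepatocyte cannot be told apart.

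Among the Cyp3a genes, Cyp3a11 was at 6437, 6350 and 6584 CPM in Vehicle replicates 1, 2 and 3 and at 6525, 5441 and 5876 CPM in FGF19 replicates 1, 2 and 3. FGF19 replicate 1 lay within the Vehicle range and the other two lay below it. The means of 6457 ± 118 and 5947 ± 546 CPM (SD, n = 3 each) gave a log2 fold change of -0.12 (standard error 0.103), and its 95% interval of -0.35 to 0.11 spans a fall of 21.5% and a rise of 8.12% (adjusted p = 0.549 in edgeR's quasi-likelihood test, Benjamini-Hochberg adjusted). Cyp3a25 was at 824, 942 and 979 CPM under Vehicle and at 770, 781 and 915 CPM under FGF19, and the groups overlapped. Its log2 fold change was -0.15 (standard error 0.107, 95% interval -0.39 to 0.09, adjusted p = 0.444 in the same edgeR test). Cyp3a59, which shares most of its sequence with Cyp3a25, was at 46.3, 50.4 and 60.9 CPM under Vehicle and at 41.2, 48.2 and 54.6 CPM under FGF19. Within each group the libraries stood in the same order for Cyp3a59 and Cyp3a25. The log2 fold change of Cyp3a59 was -0.13 (95% interval -0.43 to 0.17, adjusted p = 0.617 in the same edgeR test), and it was -0.0099 without Vehicle replicate 3.

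Cyp3a13 was the only tested member with a positive fold change. It was at 245, 305 and 281 CPM under Vehicle and at 287, 293 and 349 CPM under FGF19, so that 2 of the 3 FGF19 libraries lay inside the Vehicle range. The log2 fold change was 0.16 (standard error 0.113, 95% interval -0.09 to 0.41, adjusted p = 0.454 in edgeR's quasi-likelihood test, Benjamini-Hochberg adjusted). Its part of the Cyp3a counts was 3.60 ± 0.370% under Vehicle and 4.36 ± 0.549% under FGF19 (SD, n = 3 each). The 7 Cyp3a genes were also summed. The sum does not depend on which of them a counted read was assigned to, but reads aligned to several of them are missing from it. The sum was 7701 ± 183 CPM under Vehicle and 7127 ± 533 CPM under FGF19 (SD, n = 3 each), and the groups overlapped. Its log2 difference of -0.11 had a two-sided exact permutation p of 0.2, where 3 against 3 libraries cannot give less than 0.1.

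The 3 other Cyp3a members were not tested because they failed the filter on low counts. Cyp3a41 and Cyp3a44 are known as female-predominant genes of mouse liver, and Cyp3a16 as a gene of fetal and neonatal liver. Cyp3a44 had 7, 2 and 1 counts in the Vehicle libraries and 5, 7 and 9 in the FGF19 libraries. Cyp3a16 had 2, 2 and 3 counts under Vehicle and 0, 1 and 0 under FGF19, and Cyp3a41a had 1 count in each group. All counts of the latter 2 genes are at or under that limit of 3 counts, so no fold was computed. With no filter on low counts, edgeR's quasi-likelihood test, Benjamini-Hochberg adjusted, gave adjusted p = 0.288 for Cyp3a16, 0.538 for Cyp3a44 and 0.981 for Cyp3a41a. Of the further Cyp3a rows in the files, Cyp3a41b was listed at 0 in all libraries and Cyp3a57 had 1 count under Vehicle and 5 under FGF19.

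The Cyp1a genes lie back to back on chromosome 9, Cyp1a2 at chr9:57524744-57531462 on the minus strand and Cyp1a1 at chr9:57535735-57551631 on the plus strand. Cyp1a2, which oxidizes caffeine and aromatic amines, was at 260.0, 233 and 212 CPM under Vehicle and at 186, 225 and 249 CPM under FGF19. The ranges overlapped, and only FGF19 replicate 1 was below every Vehicle library. The log2 fold change was -0.10 (standard error 0.122, 95% interval -0.37 to 0.18, adjusted p = 0.697 in edgeR's quasi-likelihood test, Benjamini-Hochberg adjusted), and without FGF19 replicate 1 it was 0.01. Cyp1a1 was at 0.762, 0.901 and 0.894 CPM under Vehicle and at 0.837, 0.643 and 0.815 CPM under FGF19, which is 14 to 18 counts a library. At that depth its interval was wide, from -0.81 to 0.50 around a log2 fold change of -0.15 (adjusted p = 0.807 in the same edgeR test). Cyp1b1, the remaining Cyp1 gene, was at 1.92 ± 0.181 CPM under Vehicle and 1.68 ± 0.329 CPM under FGF19 (SD, n = 3 each; adjusted p = 0.687 in the same edgeR test). The ratio of Cyp1a2 to Cyp3a11 counts within a library was 0.0365 ± 0.00410 under Vehicle and 0.0374 ± 0.00771 under FGF19 (SD, n = 3 each; two-sided exact permutation p = 0.9).

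Por, at chr5:136165084-136211195 on the plus strand of mm9, was at 780.6, 704.9 and 611 CPM in Vehicle replicates 1, 2 and 3 and at 391, 474 and 570.02 CPM in FGF19 replicates 1, 2 and 3. All 3 FGF19 libraries lay below all 3 Vehicle libraries, with a narrow gap between FGF19 replicate 3 and Vehicle replicate 3. The means were 699 ± 84.9 and 478 ± 89.7 CPM (SD, n = 3 each), a log2 fold change of -0.55 (standard error 0.145, 95% interval -0.87 to -0.22) or 0.684 times the Vehicle level. The unadjusted p was 0.00394 and the adjusted p was 0.0520 in edgeR's quasi-likelihood test, Benjamini-Hochberg adjusted, just above the threshold of 0.05. Other tools and settings placed it on either side, between adjusted p = 0.00499 with DESeq2 and 0.172 with edgeR's quasi-likelihood test without FGF19 replicate 1. Without FGF19 replicate 3 the adjusted p was 0.0101 in the same edgeR test and the log2 fold change was -0.69. The log2 fold change was negative in every fit run, between -0.69 and -0.42.

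The P450s were also set against their reductase within each library, which needs no scaling between libraries. There were 9.68, 10.8 and 12.9 Cyp3a counts per Por count in the Vehicle libraries and 19.5, 13.9 and 12.6 in the FGF19 libraries. The groups overlapped, since FGF19 replicate 3 lay below Vehicle replicate 3. The log2 difference of 0.44 had a two-sided exact permutation p of 0.2, so the ratio did not separate the groups.

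**Figure D4:**
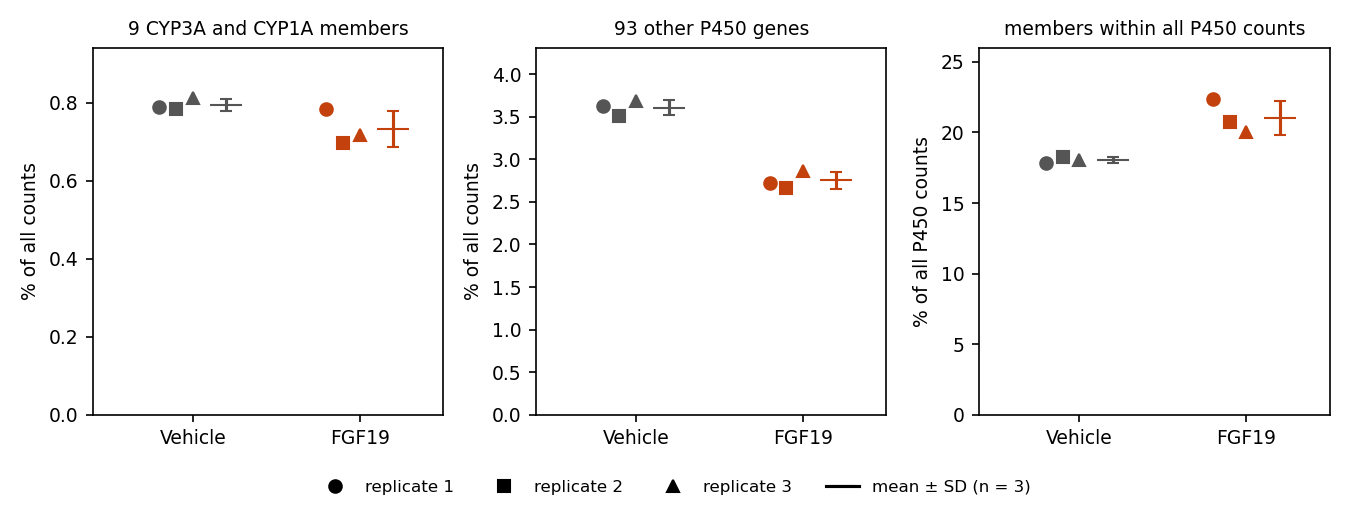
Share of counts in each library taken by the 9 CYP3A and CYP1A genes (left, percent of all counts), by the 93 other P450 genes (middle, percent of all counts) and by the 9 genes within all P450 counts (right, percent of P450 counts), with y axes that start at 0, a different marker for each replicate, and the mean ± SD of 3 libraries. The groups overlap on the left and are apart in the other two panels.

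The CYP3A and CYP1A genes stood beside P450 genes that were lower as a total. The 9 P450 members took 0.788%, 0.783% and 0.812% of all counts in the Vehicle libraries and 0.785%, 0.697% and 0.717% in the FGF19 libraries, and the groups overlapped (two-sided exact permutation p = 0.2). The 93 other P450 genes, which include Cyp3a57 and Cyp3a41b, together took 3.61 ± 0.0893% under Vehicle and 2.75 ± 0.103% under FGF19 (SD, n = 3 each). Every FGF19 library was below every Vehicle library (two-sided exact permutation p = 0.1, the smallest that 3 against 3 can give). The members' portion of all P450 counts was 18.1 ± 0.191% under Vehicle and 21.0 ± 1.21% under FGF19 (SD, n = 3 each), with every FGF19 library above every Vehicle library (two-sided exact permutation p = 0.1). These 3 tests were added after the data had been seen, and none can reach 0.05 with this design. Of the 60 other P450 genes tested, 9 were lower and 2 were higher at an adjusted p under 0.05, beside 2.84% and 4.56% of all genes tested. The median log2 fold change of the 60 was -0.33. Of the 6 tested P450 members 0 were called, with a median of -0.12. The Cyp2 family, with 33 genes tested, held 4 of the 9 lower and 1 of the 2 higher genes, and the Cyp4 family, with 15 genes tested, held 2 of the lower genes. Whether single members and other P450 genes differ in response was not tested.

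**Figure D5:**
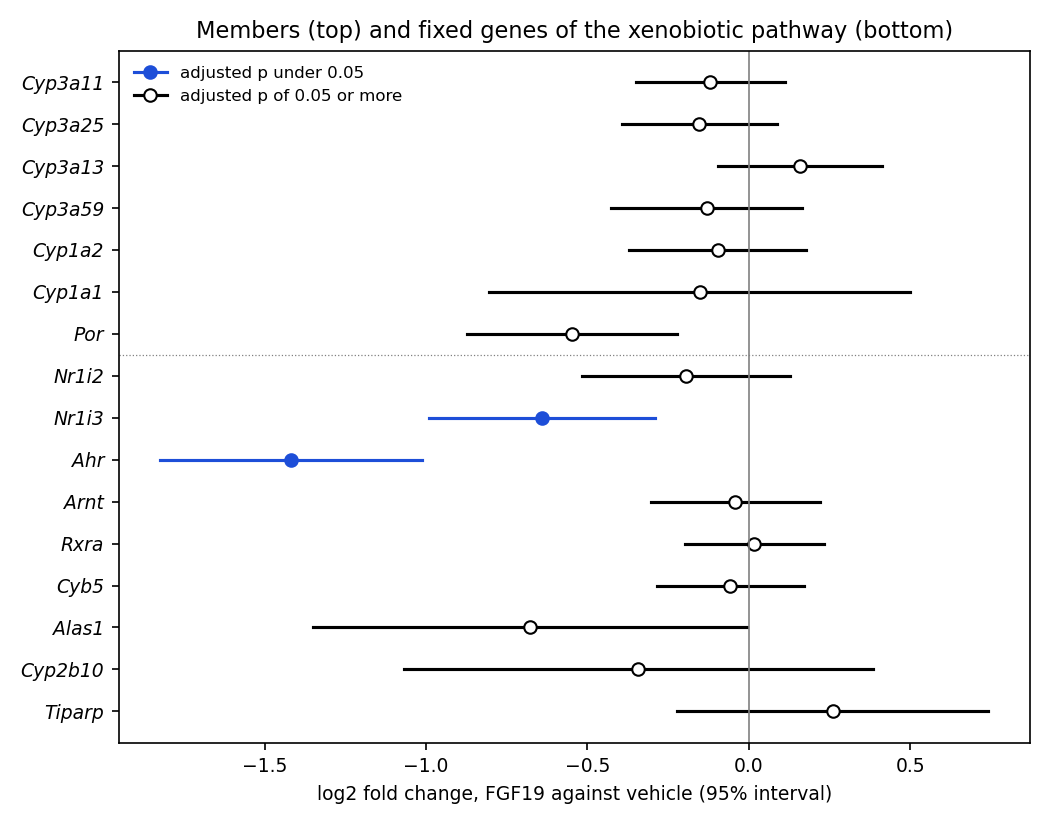
Log2 fold change of FGF19 against Vehicle with its 95% interval for the 7 tested members (top) and 9 genes of the xenobiotic pathway chosen by name (bottom), where filled blue points mark an adjusted p under 0.05 and open points do not. Ahr and Nr1i3 are marked, and the intervals of the 6 P450 members include 0 whereas that of Por does not.

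The receptors that read xenobiotics upstream of these genes were examined as a list of 7, of which 6 were tested. At an adjusted p under 0.05, 2 were lower and 0 were higher, beside 2.84% and 4.56% of all genes tested. Ahr was at 43.3, 53.7 and 56.8 CPM under Vehicle and at 20.4, 23.3 and 13.9 CPM under FGF19, and it fell by 1.42 on the log2 scale (standard error 0.181, adjusted p = 0.00197 in edgeR's quasi-likelihood test, Benjamini-Hochberg adjusted; lower in 3 of 3 FGF19 libraries and in every fit run). Its classic targets Cyp1a1 and Cyp1a2 gave the values above. Nr1i3, which encodes CAR, was at 169, 192 and 177 CPM under Vehicle and at 103, 93.8 and 148 CPM under FGF19, and it fell by 0.64 on the log2 scale (standard error 0.156, adjusted p = 0.0381 in the same edgeR test). That call was lost when any library except FGF19 replicate 3 was left out, with adjusted p up to 0.139 in the same edgeR test. The other partners were not called. Nr1i2, which encodes PXR, had a log2 fold change of -0.19 (adjusted p = 0.475 in the same edgeR test), Arnt one of -0.04 and Rxra, the shared partner of PXR and CAR, one of 0.02. With a library left out, the log2 fold change of Nr1i2 was between -0.33 and -0.10.

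Genes known to respond to PXR and CAR were examined as a list of 20 that includes Por and Alas1. Of the 19 tested, 6 were lower and 0 were higher at an adjusted p under 0.05, beside 2.84% and 4.56% of all genes tested. The log2 fold changes were negative for 19 of 19, with a median of -0.55 beside -0.000763 over all genes tested. The median of -0.55 was the value of Por itself, a member described above. The 6 were Slco1a4, an organic anion transporter (-1.22), Gsta2, a glutathione transferase (-0.85), Sult1d1, a sulfotransferase (-0.69), Cyp2c37 (-0.67), Papss2, which makes the sulfate donor (-0.61), and Aldh1a1, an aldehyde dehydrogenase (-0.60). Leaving out single libraries left between 3 and 8 lower genes of the list, with 3 without FGF19 replicate 1 and 3 without FGF19 replicate 2. The calls of Slco1a4, Cyp2c37 and Papss2 held in every fit run, whereas Gsta2, Sult1d1 and Aldh1a1 were not called without FGF19 replicate 1 or 2. Gsta2 and Aldh1a1 were also lost without Vehicle replicate 1, Sult1d1 without Vehicle replicate 2, Gsta2 and Sult1d1 without Vehicle replicate 3, and Gsta2 without FGF19 replicate 3. Cyp2b10, the classic CAR target, varied between mice and was at 23.4 ± 11.8 CPM under Vehicle and 18.4 ± 5.75 CPM under FGF19 (SD, n = 3 each; log2 fold change -0.34, adjusted p = 0.589 in edgeR's quasi-likelihood test, Benjamini-Hochberg adjusted), and its log2 fold change was 0.14 without Vehicle replicate 2. Tiparp, an AHR target that feeds back on the receptor, had a log2 fold change of 0.26 (adjusted p = 0.529 in the same edgeR test). With a library left out, the log2 fold change of Tiparp was between 0.06 and 0.46. The tally of the AHR target list is not given here, and its genes Nqo1, Cyp1b1, Ugt1a6a and Ugdh had negative log2 fold changes of -0.29, -0.19, -0.11 and -0.03 (with adjusted p from 0.471 to 0.924 by the same edgeR test).

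The genes that supply P450s with electrons and haem were examined beside Por. Of 6 other electron donors and helpers, 6 were tested, 0 were called at an adjusted p under 0.05 by the edgeR test and 3 had an unadjusted p under 0.05, beside 22.9% of all genes tested, with 6 of 6 log2 fold changes negative and a median of -0.25. Cyb5, which encodes the microsomal cytochrome b5, was at 833 ± 62.1 CPM under Vehicle and 801 ± 73.0 CPM under FGF19 (SD, n = 3 each), a log2 fold change of -0.06. Ephx1, the microsomal epoxide hydrolase, and Pgrmc1, a haem protein that binds P450s, had log2 fold changes of -0.39 and -0.28 (adjusted p = 0.0679 and 0.0841 in edgeR's quasi-likelihood test, Benjamini-Hochberg adjusted). Of 12 genes of haem synthesis and breakdown, 0 were lower and 1 was higher at an adjusted p under 0.05, beside 2.84% and 4.56% of all genes tested. The higher gene was Hmox1, which breaks haem down (log2 fold change 0.71, adjusted p = 0.0166 in the same edgeR test). Its adjusted p in that test was between 0.0531 and 0.0695 without Vehicle replicate 1, Vehicle replicate 2 or FGF19 replicate 2. Alas1, the rate-limiting gene of haem synthesis, ranged from 189 to 549.8 CPM under Vehicle and from 204 to 252 CPM under FGF19, and the groups overlapped (log2 fold change -0.68, adjusted p = 0.214 in the same edgeR test). Without Vehicle replicate 2, its lowest Vehicle library, Alas1 was lower by a log2 fold change of -0.99 with adjusted p = 0.0157, and without Vehicle replicate 1, its highest, the log2 fold change was -0.26.

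Of 10 transcription factors and coregulators that act on P450 genes in liver, 3 were lower and 1 was higher at an adjusted p under 0.05. Dbp, an output gene of the circadian clock, Onecut1, which encodes HNF6, and Nr1h4, which encodes the bile acid receptor FXR, were lower by log2 fold changes of -1.59, -1.40 and -0.61, each in 3 of 3 FGF19 libraries. These calls were not stable, with adjusted p up to 0.0561, 0.0760 and 0.0864 in edgeR's quasi-likelihood test, Benjamini-Hochberg adjusted, when a library was left out. Without Vehicle replicate 3 or FGF19 replicate 2 all 3 were lost, without Vehicle replicate 1 Onecut1 and Nr1h4 were lost, and without FGF19 replicate 1 Nr1h4 was lost. Nr0b2, which encodes the corepressor SHP, was higher by a log2 fold change of 1.38, in every fit run. Hnf4a had a log2 fold change of -0.31 (adjusted p = 0.120 in the same edgeR test) and Cebpa one of -0.26 (adjusted p = 0.126 in the same edgeR test).

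Other signals that differed between these libraries were measured beside the members, and their part in the values above was not tested. Calls in these lists are at an adjusted p under 0.05, beside 2.84% lower and 4.56% higher over all genes tested. Of 17 acute phase genes, 16 were higher after FGF19, with a median log2 fold change of 1.61 and a summed level of 18284 to 21740 CPM under Vehicle and 55562 to 60763 CPM under FGF19. Of 8 Kupffer cell and macrophage markers, 2 were higher, Marco and Cd68, and 0 were lower. Of the 8 log2 fold changes, 3 were negative, down to -0.54, and the list median was 0.06. At an unadjusted p under 0.01 in the edgeR test 1 marker was lower, beside 4.98% of all genes tested. The summed level of the list was 189 to 236 CPM under Vehicle and 196 to 230.2 CPM under FGF19. Neutrophil markers summed to 0.667 to 1.74 CPM under Vehicle and 3.49 to 4.69 CPM under FGF19, with S100a9 the only marker tested and called higher. The edgeR test called 0 endothelial, stellate cell, cholangiocyte, lymphocyte and erythroid markers at an adjusted p under 0.05, and 1 of 6, 2 of 6, 0 of 5, 1 of 5 and 1 of 1 tested had an unadjusted p under 0.05, beside 22.9% of all genes tested. Of 7 small intestine markers 3 were tested and 1 was higher, the peptidase gene Anpep, while Sis and Cdx2 were listed at 0 in all libraries. Among 14 pericentral hepatocyte genes, the zone in which CYP3A and CYP1A enzymes are concentrated, 1 was lower, the bile acid synthesis gene Cyp7a1, and Glul had a log2 fold change of -0.09. In all, 11 of the 14 log2 fold changes were negative, with a median of -0.21, and the summed level of 12733 to 13765 CPM under Vehicle did not overlap that of 9500.4 to 11314 CPM under FGF19. Most of that sum was Cyp2e1, at 9603 ± 297 and 7324 ± 780.5 CPM (SD, n = 3 each; adjusted p = 0.0645 in edgeR's quasi-likelihood test, Benjamini-Hochberg adjusted). Among 12 periportal genes, 2 were lower, Sds and Gls2, and 1 was higher, Ctsc, and all 3 lost their calls without Vehicle replicate 1, Vehicle replicate 3, FGF19 replicate 1 or FGF19 replicate 2, as did Gls2 without Vehicle replicate 2. The periportal list also had a negative median, of -0.23, with 8 of 12 log2 fold changes negative and 8 at an unadjusted p under 0.05, where the pericentral list had 4 of 14. Its summed level, too, did not overlap, at 16775 to 18708 CPM under Vehicle and 15253 to 16716 CPM under FGF19. Of 10 male-biased liver genes 0 were called by the edgeR test, with 4 at an unadjusted p under 0.05 beside the same 22.9%. Of the female-biased genes, whose count is not given here, Fmo2 was lower, at 41.9 ± 4.73 CPM under Vehicle and 11.8 ± 0.710 CPM under FGF19 (SD, n = 3 each; log2 fold change -1.83, adjusted p = 3.38e-05 in edgeR's quasi-likelihood test, Benjamini-Hochberg adjusted), in every fit run.

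Finally, the genes whose pattern over the 6 libraries was nearest to that of the abundant members were sought by the root mean square distance of centred log2 CPM, among 7543 tested genes of at least 10 CPM. The nearest to Cyp3a11 were Tet3, Bcs1l and Agtr1a, at distances of 0.0369, 0.0376 and 0.0388, and the nearest to Cyp1a2 were Pgp, Fam105b and Zfp276, at 0.0352, 0.0357 and 0.0388. No other Cyp3a or Cyp1a gene was among these nearest genes. Cyp1a1, Cyp3a16, Cyp3a41a and Cyp3a44 were below 10 CPM and could not appear. Only the nearest of 7543 genes were kept, so the absence of the more abundant members says little. Whether the members share a pattern was not tested.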

How the data were processed

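Liver RNA was prepared with a column kit and sequenced by the authors as paired 100-base reads on an Illumina HiSeq2000. According to the labels and file headers, the authors aligned reads with STAR (the sources used here name different versions) and counted them on mm9 exons with featureCounts 1.5.2. The deposited values are raw counts per gene, without normalization. Strand was not used, mates were counted singly, and reads with several alignments or on overlapping genes were left out. A second deposited table holds the authors' own comparison and was not used. The libraries were not duplicates, with a chi-square per degree of freedom of 8.68 to 41.8 for pairs of 1 group and 72.5 to 106 for pairs across groups.

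The analysis was run in R 4.3.3 and edgeR 4.0.16: filterByExpr with its minimum count of 10, TMM scaling, the quasi-likelihood test without covariates and Benjamini-Hochberg adjustment over 12559 genes. The common dispersion was 0.0163. The scripts were tested on simulated data. Sums and ratios were compared with exact permutation tests. Alternatives were DESeq2 1.42.0, limma-voom (limma 3.58.1), edgeR's likelihood ratio test, no TMM, no filter, at least 1 CPM in every library, the replicate number as a block and each library left out; those for the lists and P450 shares were added after the data had been seen. Members and lists were chosen with earlier results of these data known. Genes were named by rule: all members, other Cyp1 or Cyp3a rows, fixed pathway genes, list genes called without overlap between groups (of the acute phase list, only its count) and the 3 nearest patterns. Results that need 1 listed gene are not reported here. Where RefSeq gives several starts (Cyp3a25), the first listed was used. Exon sequences were read from the mm9 reference (NCBIM37), in which 147 of 148 introns had GT or GC and AG at their ends.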

Additional observations from a re-analysis of the deposited data

How the results depend on the processing

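Por was the only member whose call depended on the setting. Its log2 fold change was -0.55 with an adjusted p of 0.00499 under DESeq2, -0.56 and 0.0475 without TMM scaling, -0.55 and 0.0319 with no filter on low counts, -0.55 and 0.0107 with edgeR's likelihood ratio test, and -0.56 and 0.0488 with limma-voom, and each of these settings, as well as the threshold of p under 0.01, gave 1 lower member in place of 0. When every library had to reach 1 CPM, the adjusted p in edgeR's quasi-likelihood test was 0.0569. With each library left out in turn, the log2 fold change of Por was between -0.69 and -0.42 and there were between 0 and 1 lower members, with 1 only without FGF19 replicate 3. No setting gave a higher member. The other log2 fold changes kept their sign, between -0.19 and -0.051 for Cyp3a11, -0.23 and -0.10 for Cyp3a25, -0.23 and -0.0099 for Cyp3a59, 0.069 and 0.23 for Cyp3a13 and -0.23 and -0.035 for Cyp1a1, except that of Cyp1a2. It ranged from -0.19 to 0.01 and the log2 ratio of Cyp1a2 to Cyp3a11 from -0.080 to 0.20 when a library was left out, so their signs were not stable, and the cause was not tested. The sum of the Cyp3a genes stayed between -0.16 and -0.06 and the log2 ratio of Cyp3a to Por between 0.26 and 0.57. The share of all counts taken by the other P450 genes differed (FGF19 minus Vehicle) by between -0.91 and -0.81 percentage points, and the members' share of P450 counts by between 2.32 and 3.50 points. Among genes outside the members, leaving out libraries moved Arnt between -0.12 and 0.046, Rxra between -0.037 and 0.078, Cyb5 between -0.13 and 0.00359 and Cyp2b10 between -0.62 and 0.14, and left between 3 and 8 lower PXR and CAR targets and between 1 and 2 lower receptors.

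Libraries with the same replicate number did not deviate together, with correlations of -0.03, -0.18 and -0.18. Pairs with unlike numbers were between -0.13 and 0.23. Deviations were centred within groups of 3, so these correlations cannot settle whether the replicate number pairs the samples. With the number as a block, Por had a log2 fold change of -0.56 and an adjusted p of 0.108 in edgeR's quasi-likelihood test, the members called stayed at 0, and over all genes 164 were lower and 370 higher, where the fit without the block had 357 and 573. Over all genes, the likelihood ratio test called 579 lower genes, and leaving out a library gave between 91 and 926 lower and between 236 and 1015 higher genes, the most without FGF19 replicate 3. Gsta2, Sds and Gls2 lost their calls under the block. Depth limits the scarce members: Cyp1a1 rests on 14 to 18 counts a library, and Cyp3a16, Cyp3a41a and Cyp3a44 did not pass the filter.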
